A study of Mus musculus with 18 samples.

Results

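Carbonic anhydrases are zinc enzymes that turn carbon dioxide and water into bicarbonate and a proton. The 4 described here, Car1, Car2, Car4 and Car13, were taken by symbol from an RNA-seq table of 19320 genes, and the set was selected on measured values of these same libraries, since Car1 was picked for its difference between the STZ and Con spleens. For that reason every difference of a member that involves the STZ or the Con libraries is given as a description with no test. Car1 and Car2 are cytosolic enzymes of red blood cells, Car13 is a further cytosolic form, and Car4 is anchored to the outer face of the plasma membrane. The red pulp of the mouse spleen makes red cells as well as clearing old ones, and Car1 is widely used as a marker of mouse erythroid progenitors. Klf1, the transcription factor that drives erythroid genes, and Alas2, the erythroid form of the first enzyme of heme synthesis, served as erythroid reference genes.

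Whole spleens of ICR mice aged 10 weeks were sequenced in 6 groups of 3 libraries. Con mice were the controls, and A10 mice received alginate oligosaccharide (AOS), a product of brown algae, at 10 mg/kg without streptozotocin (STZ), the beta-cell toxin used to induce diabetes. STZ mice received STZ alone, STZ-A10 mice received STZ with AOS at 10 mg/kg, A10-FMT mice received STZ and the gut microbiota of donors dosed with AOS at 10 mg/kg, and Con-FMT mice received STZ and the microbiota of control donors, so that 12 libraries came from animals given STZ. The study's methods describe male mice of this outbred stock with no engineered allele, a single dose of STZ, and microbiota pooled across donors. Library depth was not given with the deposited RPKM values (read numbers corrected for gene length and library size). The 9 globin genes took between 10.4% and 42.7% of the summed RPKM of a library, and the lowest shares were those of STZ replicate 1 (10.4%) and STZ-A10 replicate 1 (13.7%). In whole tissue, fewer cells of a type and less RNA per cell cannot be told apart.

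Car13, Car1, Car3 and Car2 lie in this order on mouse chromosome 3 and were the only protein-coding genes in that stretch of GRCm38 in GENCODE M21. Car13 spans chr3:14641727-14663002 on the plus strand, Car1 chr3:14766216-14808368 on the minus strand, Car3 chr3:14863512-14872523 on the plus strand and Car2 chr3:14886273-14900770 on the plus strand. Car4 lies apart, at chr11:84957786-84966044 on the plus strand. The stretches printed here are 42 coding bases of each member around the active site, shown because the members share the same catalytic core while their coding sequences differ. Whether the reads behind this table tell the members apart was not tested. The capitals mark the codons of 2 of the histidines that hold the zinc ion.
Car1: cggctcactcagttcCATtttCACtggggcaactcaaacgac
Car2: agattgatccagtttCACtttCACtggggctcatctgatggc
Car13: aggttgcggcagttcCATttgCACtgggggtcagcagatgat
Car4: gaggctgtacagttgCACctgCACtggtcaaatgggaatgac
The stretch began at coding base 268 in Car1 and Car13, at 265 in Car2 and at 325 in Car4. Over aligned coding bases, Car1 was 64.2% identical to Car2, 65.9% to Car13 and 59.2% to Car4, and Car2 was 62.5% identical to Car13. The longest exact run that Car1 shared was 15 bases with Car2, 17 with Car13, 10 with Car4 and 20 with the neighbouring Car3. Car2 and Car13 shared one of 30 bases. A processed pseudogene, Gm16399, lies on the same strand within the Car1 locus and was not among the genes analysed here.

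Car2 was the most abundant member and Car1 the next. Car2 averaged 1309 RPKM over the 18 libraries, the place 76 in the order of all 19320 genes, and Car1 averaged 462 RPKM at place 153. The Car2 level exceeded the Car1 level in 17 of the 18 libraries, STZ replicate 1 being the exception. Alas2 averaged 643 RPKM and Klf1 151 RPKM, which placed both reference genes in the same upper range. Car13 averaged 4.77 RPKM, above 50.8% of all genes, and stayed under 5 RPKM in 13 libraries. Car4 averaged 0.0717 RPKM and was listed at 0 in 7 libraries. Car1, Car2 and Car13 passed the filter for testing, an RPKM of at least 1 in at least 3 libraries, and Car4 did not.

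**Figure D1:**
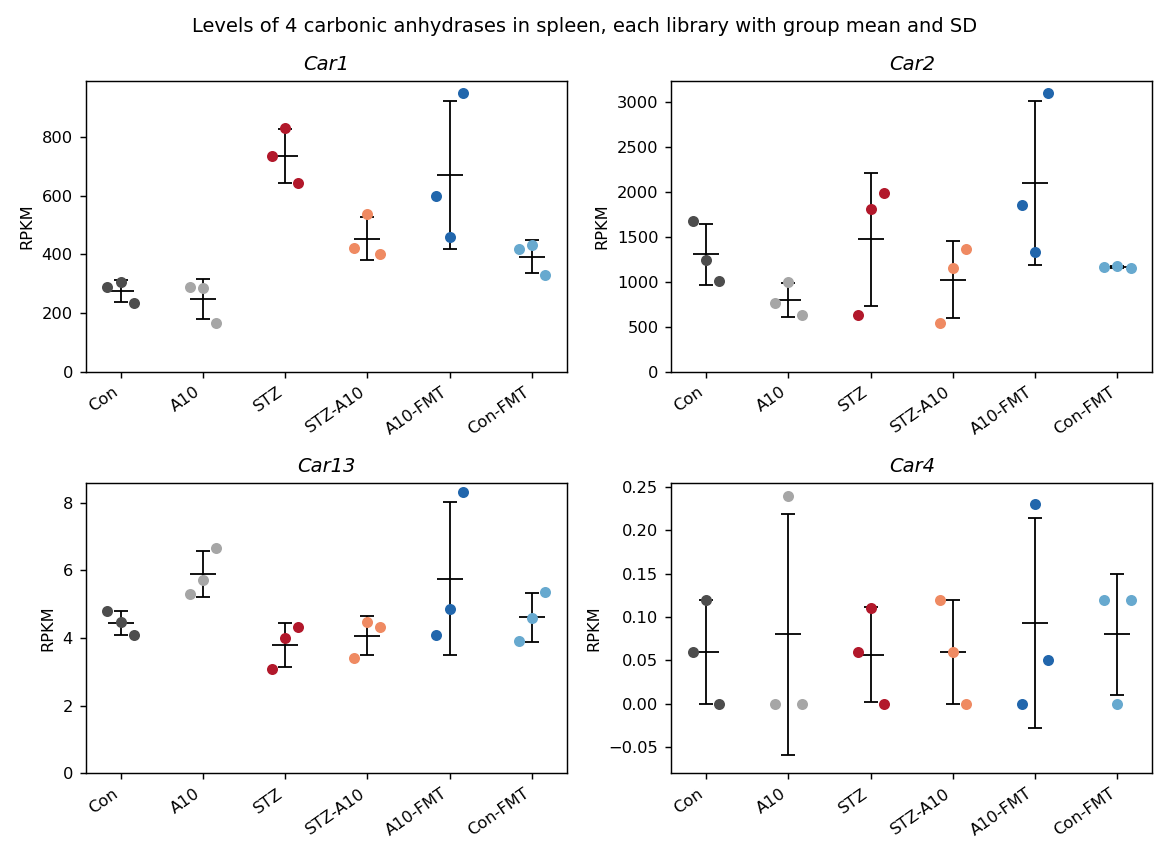
RPKM of Car1, Car2, Car13 and Car4 (vertical axes, 1 panel per gene) in the 3 libraries of each of 6 groups, with the horizontal and vertical bars giving group mean and SD. All 12 libraries of animals given STZ lie above the 6 others for Car1 and do not for Car2, and Car4 is at 0.24 RPKM or less throughout.

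Car1 split the libraries by STZ. In the Con libraries Car1 measured 288, 304 and 233 RPKM (mean 275 ± 37.3 SD, n = 3), and in the A10 libraries 290, 285 and 167 RPKM (247 ± 69.7, n = 3). In the STZ libraries it measured 734, 829 and 643 RPKM (735 ± 93.4, n = 3). The other groups given STZ lay between, with 422, 537 and 402 RPKM in STZ-A10 (453 ± 72.9, n = 3) and 417, 431 and 328 RPKM in Con-FMT (392 ± 55.8, n = 3). A10-FMT was the most spread, with 600, 460 and 952 RPKM (670 ± 254, n = 3). The lowest library given STZ, Con-FMT replicate 3 at 327.8 RPKM, stood above the highest library without STZ, Con replicate 2 at 304.27 RPKM. Among the 12905 genes tested, 17 had all 12 libraries given STZ above all 6 without (0.132%), and Car1 belongs to them partly because it was picked on the STZ and Con libraries. Without those 2 groups, the 9 libraries of STZ-A10, A10-FMT and Con-FMT still all exceeded the 3 A10 libraries in Car1, as they did in 136 genes (1.05%). In the order of group means, STZ, A10-FMT, STZ-A10, Con-FMT, Con and A10, neighbouring groups overlapped except Con-FMT over Con.

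Car2 showed no such split. It measured 1673, 1239 and 1005 RPKM in Con (1306 ± 339, n = 3), 758, 1000 and 633 RPKM in A10 (797 ± 187, n = 3) and 626, 1812 and 1984 RPKM in STZ (1474 ± 739, n = 3). STZ-A10 held 543, 1151 and 1369 RPKM (1021 ± 428, n = 3), and A10-FMT held 1855, 1330 and 3108 RPKM (2098 ± 913, n = 3). Con-FMT was the most even group, with 1163, 1171 and 1152 RPKM (1162 ± 9.61, n = 3). The lowest Car2 values of all were those of STZ-A10 replicate 1 and STZ replicate 1 among animals given STZ together with A10 replicate 3, and all neighbouring groups in the order A10-FMT, STZ, Con, Con-FMT, STZ-A10 and A10 overlapped.

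The reference genes showed the same low libraries as Car2. Klf1 measured 95.4, 187 and 213 RPKM in STZ, 69.5, 136 and 175 RPKM in STZ-A10 and 211, 146 and 350 RPKM in A10-FMT. It measured 148, 147 and 134 RPKM in Con-FMT, 181, 138 and 114 RPKM in Con and 98.6, 107 and 74.9 RPKM in A10. Alas2 measured 217, 774 and 896 RPKM in STZ, 282, 644 and 856 RPKM in STZ-A10 and 917, 674 and 1272 RPKM in A10-FMT. In STZ replicate 1 and STZ-A10 replicate 1, where Klf1, Alas2, Car2 and the globin share were low for their groups, Car1 stood at 734 and 422 RPKM, between the other libraries of its group.

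Car13 ran at a low level, with little spread within groups except A10-FMT. It measured 4.8, 4.46 and 4.1 RPKM in Con (4.45 ± 0.350, n = 3), 5.31, 5.72 and 6.65 RPKM in A10 (5.89 ± 0.687, n = 3) and 3.07, 4.01 and 4.33 RPKM in STZ (3.80 ± 0.655, n = 3). STZ-A10 held 3.4, 4.47 and 4.34 RPKM (4.07 ± 0.584, n = 3) and Con-FMT 3.91, 4.59 and 5.36 RPKM (4.62 ± 0.725, n = 3). A10-FMT held 4.08, 4.86 and 8.33 RPKM (5.76 ± 2.26, n = 3), where the last value, from the library with the highest Klf1 and globin share, was the highest of Car13 anywhere. Neighbouring groups in the order A10, A10-FMT, Con-FMT, Con, STZ-A10 and STZ overlapped.

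Car4, an enzyme best known from lung and kidney, sat at the limit of the measurement. Its values above 0 were 0.05, 0.06, 0.11, 0.12, 0.23 and 0.24 RPKM, close to 1, 2 and 4 times a smallest step of 0.06, with a highest value of 0.24 RPKM in A10 and 0.23 RPKM in A10-FMT. Each group had at least 1 library at 0, and no difference of Car4 between groups was detectable at this depth.

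Differences on a log2(RPKM + 1) scale were fitted with limma across 12905 genes in all 18 libraries, with p-values adjusted by the Benjamini-Hochberg method over all of them. Every SE, interval and p of this fit draws on the spread within all 6 groups, STZ and Con included. They are therefore not free of the choice of Car1. The comparison of STZ-A10 with A10 asks what STZ did in animals given AOS, and its difference in means uses no library on which Car1 was chosen. Car1 was 1.83-fold higher by the ratio of means, with a log2 difference of 0.90 (SE 0.25, 95% interval 0.38 to 1.43) and all 3 STZ-A10 libraries above all 3 A10 libraries. Its limma p of 0.00235 became an adjusted p of 0.167, so the change did not pass the threshold of 0.05, which 7 genes did (0.0542%), while 7.69% of genes were higher without overlap. In a fit of only the 12 libraries outside STZ and Con, the Car1 change did not pass the threshold either. Car2 differed by 0.28 (SE 0.42, interval -0.62 to 1.18) with overlapping libraries and a limma adjusted p of 0.904. Car13 was lower in STZ-A10 by -0.45 (SE 0.19, interval -0.85 to -0.04) without overlap, which 14.9% of genes also showed, and its limma adjusted p was 0.419. Klf1 differed by 0.35 and Alas2 by 0.32 in the same comparison, with limma adjusted p of 0.828 and 0.902. Marker genes of other tissues and of other spleen cells also separated these groups. The summed RPKM of 10 exocrine pancreas genes, all 10 higher by sign, was 4727 to 7350 in STZ-A10 and 46.6 to 729.8 in A10, that of 6 T cell genes, all 6 lower by sign, was 132 to 200 in STZ-A10 and 253 to 279 in A10, none of these genes was at 0 in every library, and their part in the Car1 difference was not tested. All 10 liver genes were lower by sign there, with sums of 8.26 to 26.8 RPKM in STZ-A10 and 30.7 to 94.6 RPKM in A10, and their part was not tested either.

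A10-FMT against Con-FMT compares both microbiota transplants within animals given STZ. Car1 was 1.71-fold higher in A10-FMT, with a log2 difference of 0.72 (SE 0.25, interval 0.19 to 1.25), and Car2 was 1.81-fold higher, with 0.76 (SE 0.42, interval -0.14 to 1.66). The 3 A10-FMT libraries exceeded the 3 Con-FMT libraries for both genes, as they did for 5.35% of all genes. The limma adjusted p was 0.204 for Car1 and 0.25 for Car2, and 0 of 12905 genes (0.0%) passed the threshold in this comparison by limma, with 450 higher and 2590 lower at an unadjusted p under 0.05. Car13 differed by 0.22 (SE 0.19) with an adjusted p of 0.417, and Klf1 and Alas2 differed by 0.62 and 0.65 with overlapping libraries. The median difference of all genes was -0.17 in this comparison, and the values given are not corrected for it. Without A10-FMT replicate 2, the lowest of its group in Car1, Car1 reached 0.96 with a limma adjusted p of 0.0351, at a setting where 20.3% of all genes passed. The summed T cell genes ran from 47.5 to 187.8 RPKM in A10-FMT and from 204 to 230.2 RPKM in Con-FMT. The 10 liver genes, all 10 higher by sign with a median of 2.16 and 8 at an unadjusted limma p under 0.05, summed to 110.9 to 388 RPKM in A10-FMT and 16.6 to 53.9 RPKM in Con-FMT. The part of either list was not tested.

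A10-FMT against STZ-A10 sets the transplant beside direct AOS. Car2 was 2.05-fold higher in A10-FMT, with a log2 difference of 1.05 (SE 0.42, interval 0.16 to 1.95) and a limma adjusted p of 0.0942, and Klf1 moved alongside it by 0.89 with an adjusted p of 0.0947. Car1 differed by 0.51 (SE 0.25, interval -0.02 to 1.04, adjusted p 0.146) and Car13 by 0.37 (SE 0.19, adjusted p 0.159). Libraries overlapped for all 3, and none passed the limma threshold that 770 genes (5.97%) did, 180 higher and 590 lower. That count fell to 0 without A10-FMT replicate 1 or 3 or STZ-A10 replicate 1 or 3. Without A10-FMT replicate 2, Car1 at 0.75 and Car2 at 1.34 passed it with limma adjusted p of 0.0324 and 0.0349, but so did 37.8% of all genes. Markers of other cells and tissues moved in this comparison too, and their part was not tested. All 10 liver genes were higher by sign, and 8 of them rose, led by Alb (log2 difference 5.19), Apoa2 (4.64) and Ahsg (3.59), with sums of 110.9 to 388 RPKM in A10-FMT against 8.26 to 26.8 RPKM in STZ-A10. All 10 red pulp macrophage genes were lower by sign, of which Csf1r (-0.89) and Vcam1 (-0.67) fell, as were all 8 endothelial genes, of which Tie1 (-0.71) fell. Con-FMT against STZ-A10 gave differences of -0.21 for Car1, 0.29 for Car2 and 0.15 for Car13, each smaller than its standard error and with an adjusted p of 1.00. By limma, 0 genes (0.0%) passed there, with 249 higher and 444 lower at an unadjusted p under 0.05.

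The comparisons that involve STZ or Con libraries share them with the choice of Car1 and are described only. STZ against Con, in which 21 genes passed (0.163%) and 5.77% of genes were higher without overlap, gave a log2 difference of 1.42 for Car1, 0.04 for Car2 and -0.19 for Car13. Klf1 and Alas2 did not pass the limma test there, at 0.14 (adjusted p 0.947) and -0.23 (adjusted p 0.928). A10 against Con gave -0.19 for Car1, -0.71 for Car2 and 0.34 for Car13. In that comparison Car2 was lower without overlap, as were 4.81% of genes, and Car13 was higher without overlap, as were 11.7%. STZ-A10 against STZ gave -0.70 for Car1, lower without overlap like 4.71% of genes, and -0.46 for Car2. Con-FMT against STZ gave -0.91 for Car1, lower without overlap like 6.22% of genes, and -0.17 for Car2. A10-FMT against STZ gave -0.19 for Car1 and 0.59 for Car2. In STZ against Con the 10 liver genes, all 10 lower by sign, summed to 10.8 to 14.8 RPKM in STZ and 29.1 to 299.6 RPKM in Con. The platelet receptor gene Gp6 fell, with all 12 megakaryocyte and platelet genes lower by sign, and Tnp1, a sperm chromatin gene, fell. At an unadjusted limma p under 0.05, 597 of all 12905 genes were higher and 831 lower in STZ against Con. All 12 neutrophil genes were lower by sign (median -2.18), 11 of them at an unadjusted limma p under 0.05. All 10 red pulp macrophage genes and all 10 exocrine pancreas genes were higher by sign, 7 and 3 of them at an unadjusted limma p under 0.05. The part of these genes in the Car1 difference was not tested. A single gene (0.00775%) passed the limma threshold in each of A10 against Con, STZ-A10 against STZ, A10-FMT against STZ and Con-FMT against STZ. It was the kidney gene Kap each time, which measured 13.3 to 25.95 RPKM in the Con and STZ libraries and at most 0.6 RPKM in the 12 others. STZ against Con and STZ-A10 against A10 each lie within one of those ranges of Kap. A10 against Con, STZ-A10 against STZ, A10-FMT against STZ and Con-FMT against STZ each cross from one range to the other. For Car1 in these comparisons, treatment cannot be told apart from what separates the Kap ranges, which was not tested.

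**Figure D2:**
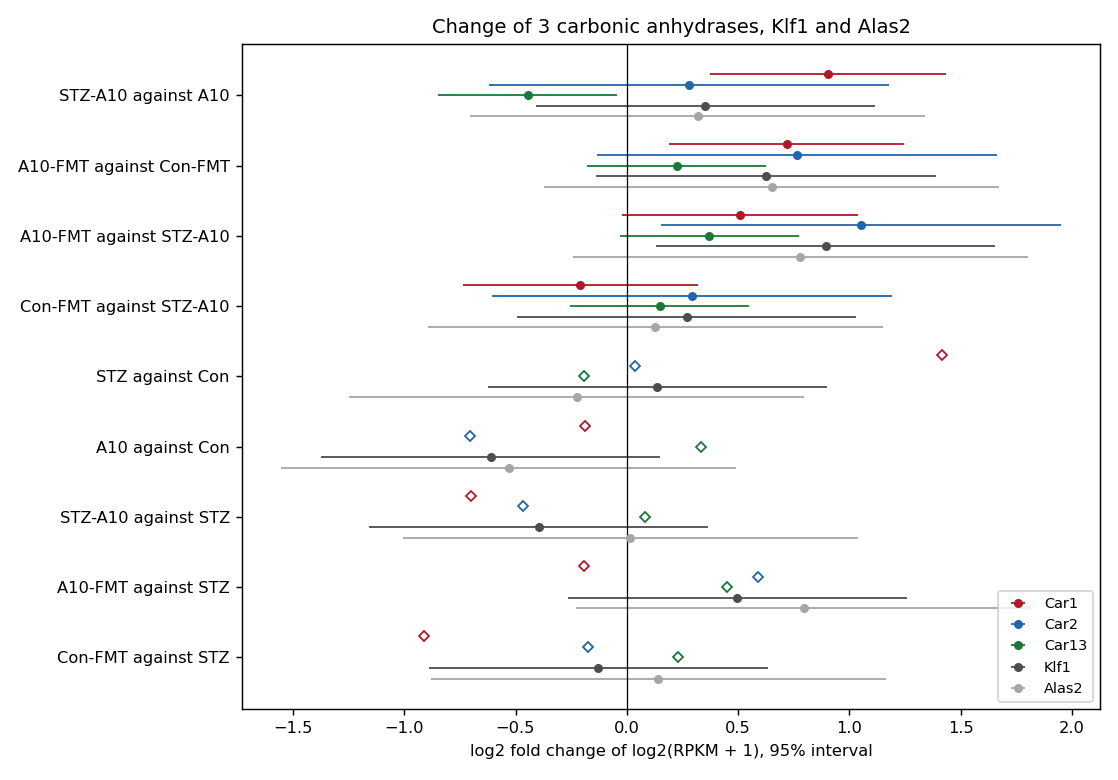
Log2 difference of log2(RPKM + 1) (horizontal axis) for Car1, Car2, Car13, Klf1 and Alas2 in 9 comparisons (rows). Filled circles carry the 95% limma interval, and open diamonds, with no interval, are members in comparisons that share libraries with the choice of Car1. The Car1 interval lies above 0 in STZ-A10 against A10 and in A10-FMT against Con-FMT. Those of Car2 and Klf1 lie above 0 in A10-FMT against STZ-A10, and that of Car13 lies below 0 in STZ-A10 against A10. The intervals are not adjusted for the number of genes, and no gene shown passed the adjusted limma threshold.

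Library by library, Car2 went with the erythroid reference genes. Over the 18 libraries the log2(RPKM + 1) values of Car2 and Klf1 were related with r = 0.98 (Pearson) and rho = 0.98 (Spearman), and both permutation p-values were 1e-05, the smallest that 100000 permutations can give (6e-05 after adjustment over 18 relations). The r stayed at 0.97 without the 2 libraries farthest from the median of Klf1, at 0.98 in the 12 libraries given STZ, at 0.98 in the 6 without and at 0.98 in deviations from the group means. Car2 had an r of 0.94 with Alas2 and 0.92 with the globin share, each with the same permutation p. Depth and the composition of the tissue are shared by all genes of a library.

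Car1 followed Klf1 less closely over all libraries, and the difference between both correlations was not tested. Its Pearson r with Klf1 over the 18 libraries was 0.61, its Spearman rho 0.53 and its r in deviations from the group means 0.53, given with no test because these libraries include those on which Car1 was picked. Since the libraries form separate ranges of Car1 by STZ, the values within each are given too: r was 0.51 in the 12 given STZ and 0.70 in the 6 without. The r ran down to 0.48 with 1 library left out, A10-FMT replicate 3. With Alas2, Car1 had an r of 0.38, which was 0.82 without the 2 libraries farthest from the median of Alas2 and 0.69 without STZ replicate 1 alone. Car1 and Car2 had an r of 0.53, which became 0.72 without STZ replicate 1. In the 12 libraries outside STZ and Con, a choice made after the values were seen, Car1 had an r of 0.81 and a rho of 0.66 with Klf1 (permutation p 0.00275 and 0.0224, adjusted 0.00427 and 0.0224 over 3 relations), with an r of 0.90 without the 2 farthest libraries and 0.65 in deviations from the group means. In the same libraries its r was 0.76 with Alas2 and 0.79 with Car2 (rho 0.68 and 0.66, permutation p 0.00427 and 0.00393 for r and 0.0187 and 0.0222 for rho, adjusted 0.00427 and 0.0224 for both). Car13 had an r of 0.30 with Klf1 (permutation p 0.231, adjusted 0.378), 0.73 within the 12 libraries given STZ and -0.68 within the other 6, -0.38 without the 2 farthest libraries and 0.64 in deviations from the group means. The pooled sign thus turned without those 2 libraries. The relations of Car4 lay between -0.16 and 0.02 and carry little, given values at or near 0.

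**Figure D3:**
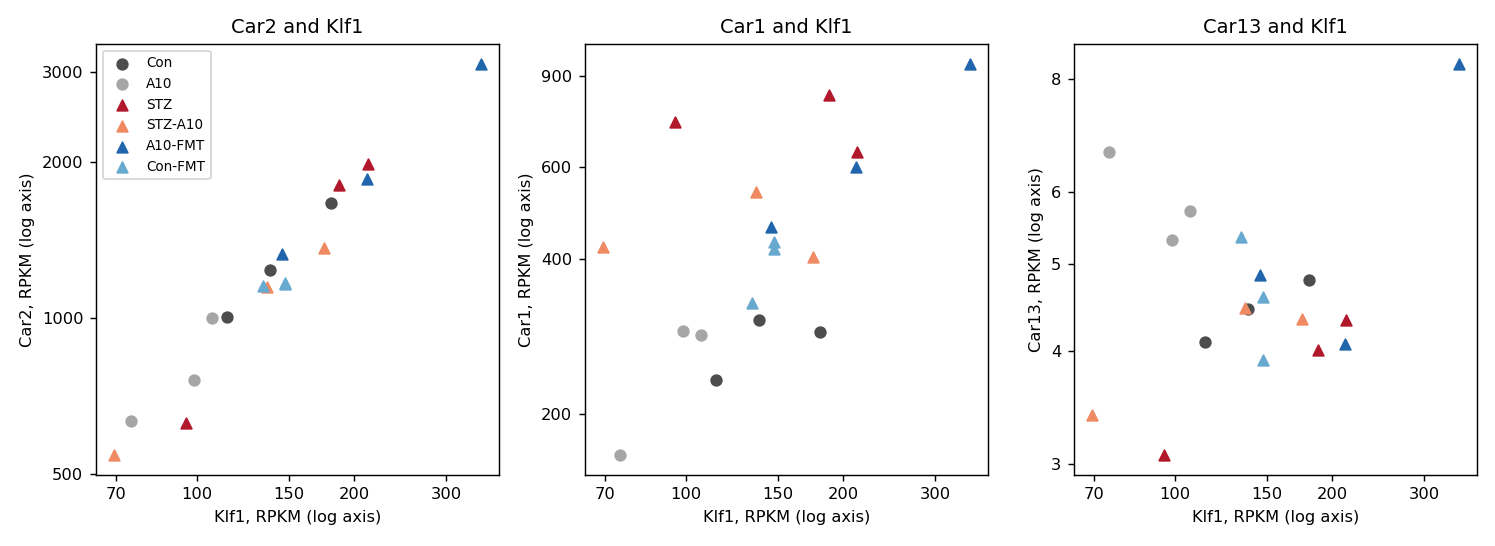
RPKM of Car2, Car1 and Car13 (vertical log axes) against that of Klf1 (horizontal log axis) in 18 libraries, with colour for group, circles for the 6 libraries without STZ and triangles for the 12 given STZ. Car2 lies near a single line (r 0.98) and Car13 shows no common line (r 0.30). Car1 lies higher in the libraries given STZ, which include those on which it was picked. Its ratio to Klf1 overlaps between the libraries given STZ (2.30 to 7.70) and those without (1.59 to 2.94).

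The ratio of Car2 to Klf1 varied little. It was 9.01 ± 0.230 in Con, 8.49 ± 0.829 in A10, 8.52 ± 1.70 in STZ, 8.03 ± 0.374 in STZ-A10, 8.93 ± 0.184 in A10-FMT and 8.14 ± 0.402 in Con-FMT (SD, n = 3 each). The ratio of Car1 to Klf1 was 1.59, 2.2 and 2.04 in Con and 2.94, 2.66 and 2.23 in A10. It reached 7.70, 4.43 and 3.02 in STZ and 6.06, 3.95 and 2.30 in STZ-A10, where the first replicate of each group was the highest. In A10-FMT it was 2.84, 3.16 and 2.72, and in Con-FMT 2.82, 2.92 and 2.45. Unlike the Car1 level, the ratio overlapped between the 12 libraries given STZ (2.30 to 7.70, median 2.97) and the 6 without (1.59 to 2.94, median 2.22). The log2 ratio of Car1 to Klf1 was 0.55 higher in STZ-A10 than in A10 (two-sided exact permutation p 0.3) and 0.09 higher in A10-FMT than in Con-FMT (exact permutation p 0.5), and the smallest p that 3 against 3 allows is 0.1. Car2 to Klf1 differed by -0.08 in the first comparison (exact permutation p 0.7) and by 0.14 in the second (exact permutation p 0.1). Over the 10 ratio differences computed, the adjusted exact permutation p was 0.75 or more.

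**Figure D4:**
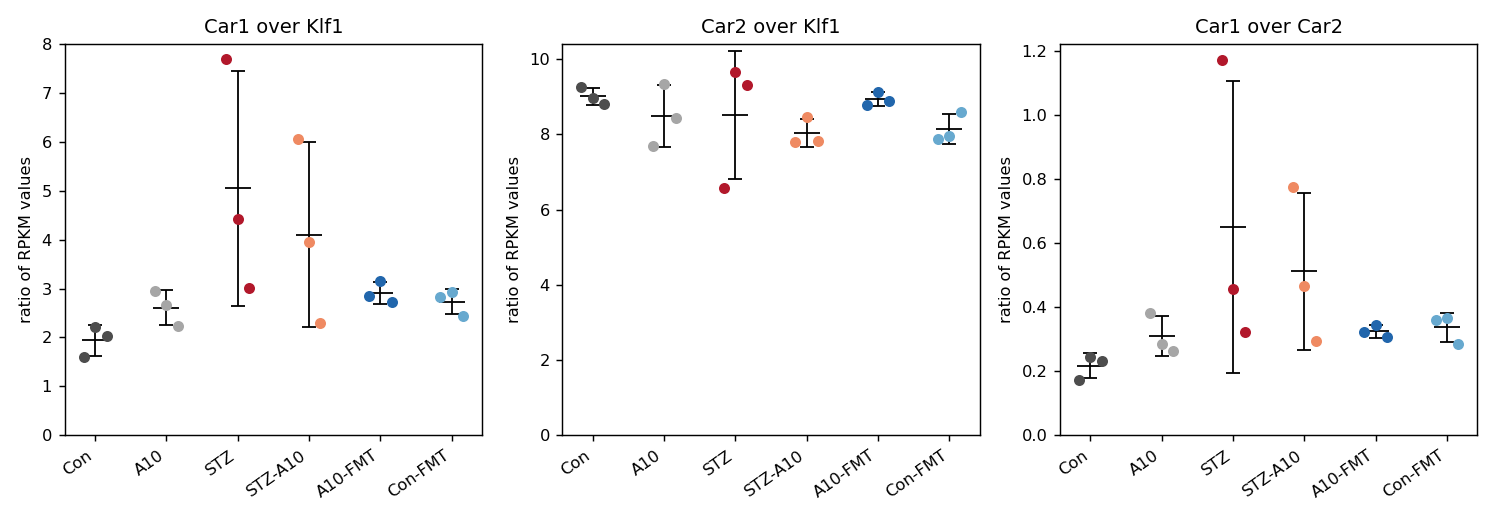
Ratio of RPKM values of Car1 over Klf1, Car2 over Klf1 and Car1 over Car2 (vertical axes from 0) in each library by group, with mean and SD bars. Car2 over Klf1 stays between 6.56 and 9.67, while Car1 over Klf1 runs from 1.59 in Con to 7.70 in STZ.

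With the Klf1 level added to the limma fit as a covariate, a step chosen after the relation was seen, the Car2 difference fell from 0.76 to 0.05 in A10-FMT against Con-FMT and from 1.05 to 0.03 in A10-FMT against STZ-A10. The fall of Car2 follows from its relation with Klf1 in these same libraries (r 0.98) and is no separate result. Car1 differed by 0.78 in place of 0.90 in STZ-A10 against A10 (limma adjusted p 0.0817) and by 0.50 in place of 0.72 in A10-FMT against Con-FMT (limma adjusted p 0.727). Car13 in STZ-A10 against A10 went to -0.56 (limma adjusted p 0.0777).

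Lists of related genes were counted beside the members. In STZ-A10 against A10 all 12 erythroid progenitor and regulator genes, all 18 tested late erythroid genes and all 10 heme synthesis genes had positive signs, with medians of 0.40, 0.38 and 0.29 against -0.03 for all genes. By limma none passed the adjusted threshold there, and 1, 0 and 0 of them had an unadjusted p under 0.05. Of all 12905 genes, 489 were higher and 828 lower at that unadjusted limma p. In A10-FMT against Con-FMT the 3 erythroid lists had medians of 0.53, 0.78 and 0.61 against -0.17, again with 0 past the limma threshold. In that comparison 1, 3 and 1 of their genes had an unadjusted limma p under 0.05, beside 450 higher and 2590 lower of all genes. In A10-FMT against STZ-A10 the medians were 0.71, 0.82 and 0.79 against -0.20, and of these lists 1 of the 18 late erythroid genes, Tspo2, rose (log2 difference 1.32), near the share of all genes that passed, and all calls were lost without any 1 of the 4 libraries that took the count of 770 to 0. The adult globins Hbb-bs and Hbb-bt were called too, but they share reads with near-identical globin copies, Hbb-bs ran from 5.61 to 54525 RPKM over the 18 libraries, and both are uncertain. In STZ against Con, where Car1 was highest, the medians were 0.17, -0.15 and 0.03, and all 6 tested globin genes had negative signs. The 13 tested genes of carbon dioxide, bicarbonate and proton transport held 0 limma calls in any of the 9 comparisons. In STZ-A10 against A10, 7 of them were higher and 6 lower by sign, with 0 at an unadjusted p under 0.05. In A10-FMT against Con-FMT, 5 were higher and 8 lower by sign, with a median of -0.24. At an unadjusted limma p under 0.05, 1 was higher and 2 were lower there. Slc4a1, the chloride and bicarbonate exchanger of the red cell membrane, and Rhag, a red cell membrane protein of the Rh complex, were among the higher genes. Slc4a1 differed by 0.45 in STZ-A10 against A10 and by 0.75 in A10-FMT against Con-FMT, and Rhag by 0.69 and 0.84, with limma adjusted p from 0.208 to 0.835.

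The rest of the family was low in spleen, Car3 excepted. Of the 16 family genes listed 15 were in the table, and besides the members only Car3, Car9, Car12 and Car15 passed the filter. Car15 averaged 2.12 RPKM, Car9 1.01 RPKM and Car12 0.751 RPKM, and the other 7 averaged 0.62 RPKM or less. By limma none of these 4 passed the adjusted threshold in any of the 9 comparisons. Car3, an enzyme abundant in fat and muscle, measured 14.8, 101 and 82.1 RPKM in Con and 50.8, 175 and 72.7 RPKM in A10, against 3.35, 2.28 and 2.64 RPKM in STZ. STZ-A10 held 29.6, 6.66 and 5.24 RPKM of it, A10-FMT 13.9, 35.5 and 28.7 RPKM and Con-FMT 41.2, 21 and 3.84 RPKM. A10-FMT stood above STZ without overlap, as it did in 301 of 12905 genes, by 2.76 (limma adjusted p 0.209). Con-FMT also stood above STZ without overlap, as it did in 896 genes, by 2.15 (limma adjusted p 0.918). Car3 was lower by -3.78 in STZ against Con (SE 0.82, limma adjusted p 0.0653), without overlap like 912 of the 12905 genes. In STZ-A10 against A10 it was lower by -2.95 (SE 0.82, limma adjusted p 0.17), without overlap like 14.9% of genes. Car3 and Car1 lie side by side on chromosome 3. The STZ libraries held the lowest Car3 values, while Car1, highest in A10-FMT replicate 3 (952 RPKM), was picked for its difference between STZ and Con. Their opposite directions in STZ against Con are therefore a description only. The fat cell gene Adipoq, looked up after the Car3 values were seen, measured 1.58, 9.81 and 9.13 RPKM in Con and 7, 20.4 and 10.0 RPKM in A10. In STZ it measured 0.32, 0.73 and 0.24 RPKM, in STZ-A10 3.8, 0.57 and 0.49 RPKM, in A10-FMT 0.96, 5.76 and 2.37 RPKM and in Con-FMT 7.27, 3.02 and 0.38 RPKM, and the part of fat in the Car3 values was not tested.

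**Figure D5:**
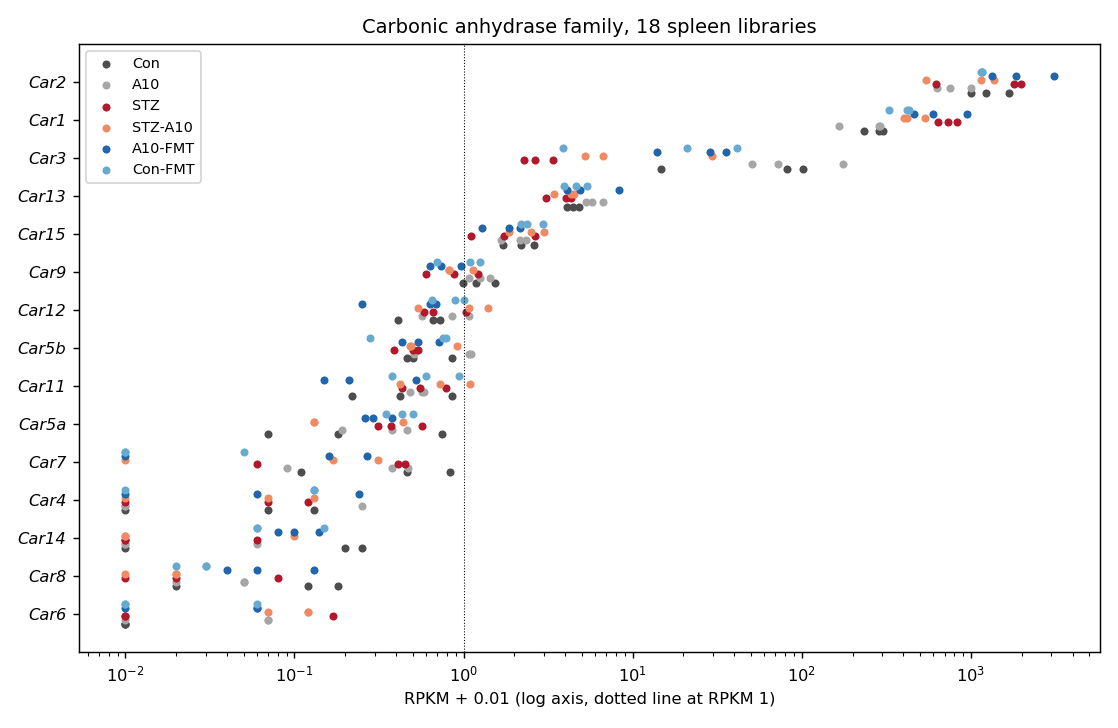
RPKM plus 0.01 (horizontal log axis) of the 15 carbonic anhydrase genes in the table (rows, by mean level) in 18 libraries coloured by group, with a dotted line at an RPKM of 1. Car2 and Car1 lie above 100, Car3 runs from 2.28 to 175 and the others lie below 10.

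The genes whose log2 levels ran most like each member over the 18 libraries were ranked by Pearson r among 9361 genes with a mean of at least 5 RPKM. For Car1 they were Hopx (r 0.92), Bex4, Mt2, Col5a1 and Sdsl (each 0.90), while Klf1 ranked 610 and Alas2 1658. The 18 libraries include those on which Car1 was picked, so this ranking favours genes that separate STZ from Con and is a description only. In deviations from the group means the r with Car1 was 0.72 for Hopx, 0.66 for Bex4 and 0.64 for Mt2. It was 0.74 for Col5a1, 0.78 for Sdsl and 0.53 for Klf1. Mt2, a metallothionein that binds zinc and copper, averaged 141 RPKM, with 78.6 to 367 RPKM in the 12 libraries given STZ and 57.4 to 104 RPKM in the 6 without. For Car2 they were Cd24a, Klhl12 and Hemgn (each 0.99), with Klf1 at rank 15 and Alas2 at 186. Hemgn encodes the hemogen protein of blood-forming cells and Cd24a a surface protein of immature red cells and B cells. For Car13 they were Ell2 (0.86), Hells (0.86) and Top1 (0.84), with Klf1 at rank 1777. For Car4 the highest values were 0.64 for Wrap73, 0.63 for Trappc3 and 0.62 for Cbr1.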

How the data were processed

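Spleen RNA was enriched with oligo(dT) and sequenced on an Illumina HiSeq instrument. The authors mapped reads to reference genes with SOAPaligner 2.20 (the submitters' notes name Bowtie 0.12.2 and mm10) and deposited RPKM values, rounded to 2 decimals, in 1 table of 18 libraries. Counts, gene lengths and library depth were not used here, and RPKM gives no read-level precision. The annotation version was not given in the sources used here. Strand use in counting was not stated either, which bears on Alas2, overlapped by Apex2 on the other strand.

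Of 19326 lines, 6 lines of 3 repeated names were left out. limma 3.58.1 (R 4.3.3, trend) was fitted to log2(RPKM + 1) with 1 coefficient per group, over 12905 genes with RPKM of at least 1 in at least 3 libraries. A fold change on this scale understates that of low genes. The fit was tested on simulated data. Groups came from the labels. Nothing in the labels says that libraries of a group came from separate animals, so p-values measure the spread between these libraries. The text names the 4 members, the other family genes, Klf1, Alas2, up to 3 genes per list and direction with the largest change past the threshold, and the 5 (Car1) or 3 most alike genes. Slc4a1, Rhag and Adipoq were named outside this rule, after values were seen. The members and lists were chosen with earlier results of these data known. Coding sequences came from GENCODE M21 (GRCm38) transcripts.

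Alternatives were other normalizations (quantile, median, without globins), filters, pseudocount 0.1, limma without trend or with array weights, fewer groups, a replicate block, the study's threshold, each library left out and the Klf1 covariate.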

Additional observations from a re-analysis of the deposited data

How the results depend on the processing

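The Car1 increase in STZ-A10 against A10 and in A10-FMT against Con-FMT kept its direction in each alternative run. Array weights, fitted gene by gene because the default estimate did not converge, gave libraries weights from 0.112 to 7.37 and called Car1 at 1.01 (limma adjusted p 0.00542) and 0.53 (adjusted p 0.0108), and Car2 at 0.65 in A10-FMT against Con-FMT and 0.72 in A10-FMT against STZ-A10, while Car13 turned to -0.092 and -0.043 in those 2 comparisons and Alas2 to 0.27 in STZ against Con. Under that setting 1791 genes (13.9%) passed in STZ-A10 against A10 in place of 7, 6068 (47.0%) in A10-FMT against Con-FMT in place of 0 and 5540 (42.9%) in A10-FMT against STZ-A10 in place of 770. With all libraries kept, the other settings ran from 0 (the study's threshold) to 233 (Klf1 covariate) in the first and from 0 to 1 in the second, and 770 in A10-FMT against STZ-A10 became 0 with the Klf1 covariate, 3 with only the groups compared and 1778 without globin genes, and 344 without the filter, 306 under quantile normalization and 0 by the study's threshold. In STZ against Con, 21 became 0 with only the groups compared or by the study's threshold, 245 with the Klf1 covariate, 3716 with array weights and 1 to 162 with 1 library left out. The 1 gene in each of the 4 other comparisons with STZ or Con became 9 to 2360 with array weights, up to 23 in A10 against Con (without Con replicate 3) and 87 in A10-FMT against STZ (without STZ replicate 3), and the 0 in Con-FMT against STZ-A10 became 499. The cause was not tested. With Klf1 as a covariate, chosen after seeing the data, Car2 turned to -0.13 in STZ-A10 against A10 and -0.017 in Con-FMT against STZ-A10, and Alas2 to -0.13, -0.14, -0.35 and -0.21 in STZ-A10 against A10, A10-FMT against Con-FMT, A10-FMT against STZ-A10 and Con-FMT against STZ-A10.

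Leaving out 1 library at a time gave Car1 0.43 to 0.96 in A10-FMT against Con-FMT and 0.22 to 0.75 in A10-FMT against STZ-A10, and Car2 0.65 to 1.34 in the latter, past the threshold only without A10-FMT replicate 2, when 2625 and 4872 genes passed in these comparisons. Without A10-FMT replicate 1 or 3, or STZ-A10 replicate 1 or 3, 0 genes passed in A10-FMT against STZ-A10. Ranges that crossed 0 were -0.035 to 0.40 for Car13 in A10-FMT against Con-FMT (negative without A10-FMT replicate 3), -0.11 to 0.56 for Car2, -0.11 to 0.55 for Klf1 and -0.34 to 0.46 for Alas2 in Con-FMT against STZ-A10 (negative without STZ-A10 replicate 1), -0.084 to 0.49 for Klf1 and -0.60 to 0.42 for Alas2 in STZ against Con, and -0.016 to 0.78 for Alas2 in STZ-A10 against A10. Of the untested differences, those of Car1 in A10 against Con (-0.32 to 0.072) and A10-FMT against STZ (-0.48 to 0.047), Car2 in STZ against Con (-0.26 to 0.57) and Con-FMT against STZ (-0.71 to 0.13) and Car13 in STZ-A10 against STZ (-0.034 to 0.18) crossed 0. So did the log2 ratio of Car1 to Car2 in A10-FMT against Con-FMT (-0.16 to 0.022) and of Car2 to Alas2 in STZ-A10 against A10 (-0.12 to 0.030), and the r of Car1 with Car13 (-0.68 to 0.015) and Car4 (-0.12 to 0.15), Car13 with Klf1 (-0.12 to 0.53), Car2 with Car4 (-0.16 to 0.0086) and Car4 with Car13 (-0.14 to 0.11). The r of Car1 with Car13 was 0.063 under quantile normalization, that of Car1 with Car4 -0.0071 without globin genes, and that of Car4 with Car13 -0.0303 (pseudocount 0.1), -0.29 (quantile) and -0.029 (without globins).

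Deviations of like-numbered libraries correlated by -0.04 to 0.06 in STZ-A10 against A10 and -0.09 to 0.10 in A10-FMT against Con-FMT. They were highest in STZ-A10 against STZ (0.04 to 0.57), so pairing by number was not excluded. The replicate block cannot move a group difference, since each number occurs once in every group, so those of Car1 stayed 0.90 and 0.72. Their limma adjusted p with the block were 0.179 and 0.197, and no call of a member changed. The block left 4 genes past the threshold in STZ-A10 against A10 and 3 in STZ against Con, in place of 7 and 21. RPKM to 2 decimals limits what can be said of Car4, and 3 libraries a group limit every comparison.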
